A study of Schizosaccharomyces pombe with 9 samples.

Results

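The genes described here encode glycolytic enzymes of fission yeast, and were chosen from a list of 10 as those whose probe sets carry that gene's symbol alone in the array's gene table. That rule found 9 of the 10, among 2899 Schizosaccharomyces pombe genes with a probe set of 1 symbol. They are hxk1, hxk2, pgi1, pfk1, fba1, tpi1, pgk1, gpm1 and pyk1, with 1 probe set each. The probe set listed for tdh1, a glyceraldehyde-3-phosphate dehydrogenase gene, is listed for gpd3 as well, so no value is given under the name tdh1.

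Glycolysis is the route by which fission yeast splits glucose into pyruvate, and most of that pyruvate is fermented to ethanol when glucose is plentiful. Hexokinases phosphorylate glucose, an isomerase and phosphofructokinase prepare it for splitting, aldolase and triosephosphate isomerase give triose phosphates, and the remaining enzymes recover ATP on the way to pyruvate. Glucose 6-phosphate and the triose phosphates are also branch points, since trehalose, the pentose phosphate pathway and glycerol are made from them.

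Total RNA of 3 strains was measured on 9 Affymetrix arrays, with 3 arrays labelled as biological replicates for each strain. The parent SPQ-01 served as WT. SD1 is that strain with rpl32-1 (rpl3201) deleted and SD2 is that strain with rpl32-2 (rpl3202) deleted, the paralogous genes for ribosomal protein L32. All 3 strains grew in YEPD, a rich glucose medium, at 30 °C to an OD600 of 5.0, which the labels call log phase. The number of independent deletion clones per strain is not given in the labels.

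The deleted genes matched the labels. In SD1 rpl3201 was at 4.17, 6.04 and 4.90 on the log2 scale, beside 13.88 to 14.45 in WT, and in SD2 rpl3202 was at 7.25, 8.89 and 7.88, beside 14.11 to 14.38. The 3' signal less the 5' signal, which varies with RNA quality and labelling, differed between strains for rRNA. For 18S rRNA it averaged -1.17 ± 0.32 in WT against -0.37 ± 0.055 in SD1 and -0.43 ± 0.13 in SD2 (log2, SD over 3 arrays), for 28S rRNA -0.23 ± 0.21, 0.38 ± 0.23 and 0.26 ± 0.12, and for ACT1 mRNA 0.30 ± 0.083, 0.30 ± 0.032 and 0.33 ± 0.050. Control probe sets labelled Sp-GPD3, whose levels are given below, differed from WT unequally by end. Their log2 differences were -0.47 (5') and -0.16 (3') in SD1, and -0.06 (5') and -0.12 (3') in SD2. The part of RNA quality in the differences from WT given below was not tested. Of mating-type markers, 7 of 7 probe sets (5 genes) for M cells were called lower in SD1 and 3 of 7 in SD2, and of 3 for P cells 1 was called higher in each deletion and 1 lower in SD1. Over all S. pombe probe sets 23.7% were called lower and 19.5% higher in SD1, and 14.3% and 17.6% in SD2. The summed signal of the markers on a log2 scale was 12.71 to 13.54 in WT, 11.56 to 12.27 in SD1 and 12.08 to 12.92 in SD2 for M cells and between 8.89 and 9.28 in all strains for P cells, and 0 of the marker probe sets lay below background on all arrays of a strain. The part of mating-type cells in the glycolytic values was not tested either.

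Loss of either L32 gene came with lower RNA of the enzymes that open the pathway. The hexokinase genes hxk1 and hxk2 and the glucose-6-phosphate isomerase gene pgi1 fell in both deletions, 1.57-fold to 1.60-fold in SD1 and 1.35-fold to 1.41-fold in SD2. In these bulk cultures fewer expressing cells and less RNA per cell cannot be told apart. From phosphofructokinase to pyruvate kinase, the other 6 genes were not called in SD1 or in SD2, and their log2 differences from WT ran from -0.22 for pgk1 in SD1 to 0.13 for pfk1 in SD2. That division was drawn after the values were seen, and it rests on the fit without the array number. With the number as a block, pgk1 (adjusted p = 0.0102), gpm1 (0.0277) and tpi1 (0.0459) passed as lower and pfk1 (0.0379) as higher in SD1, and pfk1 passed as higher in SD2 (0.0404).

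All values are the deposited log2 values, so a difference of 1 is a change of 2-fold. Each difference was tested with limma over all 2937 S. pombe probe sets, and a gene was called at a Benjamini-Hochberg adjusted p under 0.05. In SD1, 3 of the 9 genes were called lower and 0 higher, beside 23.7% of all probe sets lower and 19.5% higher. In SD2, 3 were called lower and 0 higher, beside 14.3% lower and 17.6% higher. With shares this large among all probe sets, 3 calls in 9 do not set the glycolytic genes apart. At an unadjusted p under 0.05 the counts were 4 in SD1, beside 50.9% of all probe sets, and 3 in SD2, beside 42.6%.

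**Figure D1:**
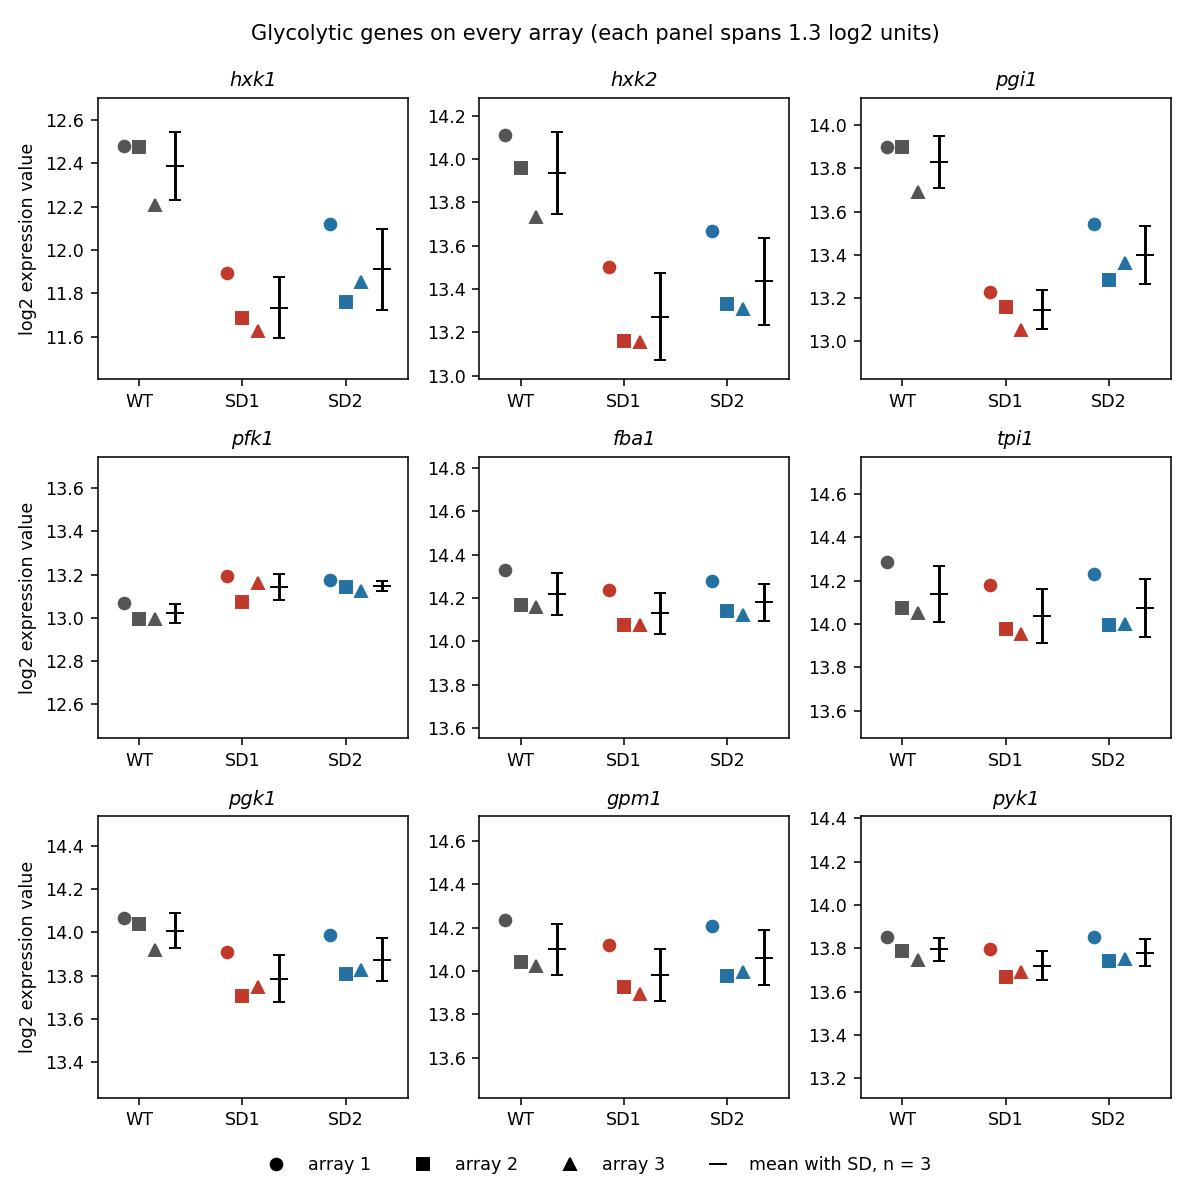
Log2 expression values (y axis) of the 9 glycolytic genes in WT, SD1 and SD2, with circles, squares and triangles for arrays numbered 1, 2 and 3, and bars for the mean with SD (n = 3). The WT arrays of hxk1, hxk2 and pgi1 lie above all arrays of both deletions, and array 1 tends to be the highest of its strain.

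Hexokinase transfers phosphate to glucose and holds it in the cell, and S. pombe has paralogous genes for it. The probe set of hxk1 (SPAC24H6.04, 1778012_at) read 12.48, 12.48 and 12.21 on WT arrays 1, 2 and 3, 11.89, 11.68 and 11.63 in SD1, and 12.12, 11.76 and 11.85 in SD2. Every deletion array lay below every WT array. This held for 4 of the 9 genes in SD1 (hxk1, hxk2, pgi1 and pgk1) beside 28.6% of all probe sets, and for 3 of 9 in SD2 (hxk1, hxk2 and pgi1) beside 20.2%. The log2 difference from WT was -0.65 ± 0.12 (SE, adjusted p = 0.00315) in SD1 and -0.48 ± 0.12 (adjusted p = 0.0197) in SD2. In SD1 this call held under all 15 alternative fits. In SD2 it was lost without WT array 2 (-0.43, adjusted p = 0.0676), SD2 array 2 (-0.40, 0.0705) or SD2 array 3 (-0.45, 0.0658), where adjusted p-values ran from 0.00301 to 0.0705 over the alternatives.

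The paralog hxk2 (SPAC4F8.07C, 1770547_at) read 14.11, 13.96 and 13.73 in WT, 13.50, 13.16 and 13.15 in SD1, and 13.67, 13.33 and 13.31 in SD2. Its groups did not overlap either, though the lowest WT array and the highest SD2 array lay close together. It fell by 0.66 ± 0.15 in SD1 (log2, SE, adjusted p = 0.00662) and by 0.50 ± 0.15 in SD2 (adjusted p = 0.0300). The hexokinase genes thus had log2 differences of nearly the same size within each deletion. The SD2 call on hxk2 was the least firm of the 6, since 5 of 15 alternatives lost it. These were centring each array on its median (adjusted p = 0.0706) and leaving out WT array 1 (0.0768), WT array 2 (0.0844), SD2 array 2 (0.0960) or SD2 array 3 (0.0990), and its log2 difference ran from -0.62 to -0.41 over all alternatives.

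Glucose-6-phosphate isomerase turns glucose 6-phosphate into fructose 6-phosphate and works in both directions. The probe set of pgi1 (SPBC1604.05, 1779780_at) read 13.90, 13.90 and 13.69 in WT, 13.23, 13.16 and 13.05 in SD1, and 13.54, 13.28 and 13.36 in SD2. The 3 strains formed 3 separate ranges, with WT highest and SD1 lowest. The fall was 0.68 ± 0.097 in SD1 (log2, SE, adjusted p = 0.000775) and 0.43 ± 0.097 in SD2 (adjusted p = 0.0106). Both calls on pgi1 held under all 15 alternatives, with adjusted p-values up to 0.00502 in SD1 and 0.0422 in SD2.

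Phosphofructokinase commits fructose 6-phosphate to glycolysis. Its gene pfk1 (SPBC16H5.02, 1776674_at) differed in sign from the other 8 and read 13.07, 12.99 and 13.00 in WT, 13.19, 13.07 and 13.16 in SD1, and 13.17, 13.14 and 13.13 in SD2. All 6 deletion arrays lay above the 3 WT arrays, by small steps. The log2 difference was 0.12 ± 0.064 in SD1 (adjusted p = 0.160, 95% interval -0.02 to 0.27) and 0.13 ± 0.064 in SD2 (adjusted p = 0.170, -0.02 to 0.27). Those intervals hold rises up to 0.27 and falls of at most 0.02. With the array number as a block the adjusted p was 0.0379 in SD1 and 0.0404 in SD2. Among all probe sets 23.3% in SD1 and 23.1% in SD2 had 3 arrays above the 3 WT arrays.

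**Figure D2:**
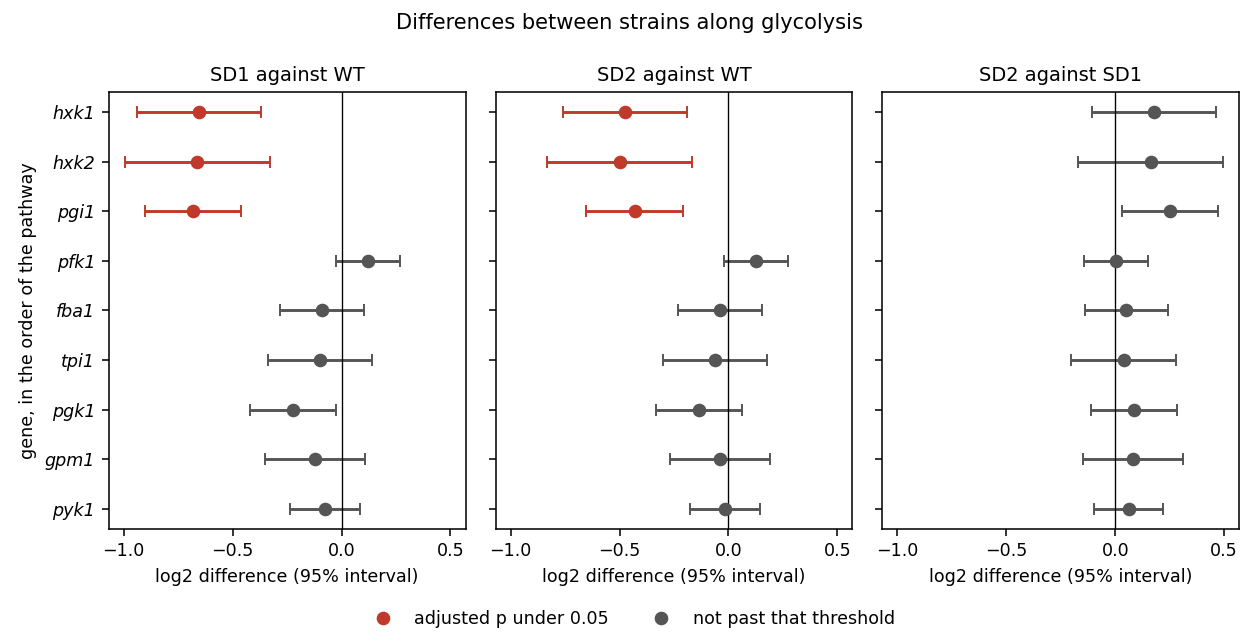
Log2 differences between strains (x axis, with the 95% interval from limma, not adjusted for the number of probe sets) for the 9 genes in pathway order (y axis), in red where the adjusted p was under 0.05 in the fit without the array number. Red points are confined to hxk1, hxk2 and pgi1 in the comparisons with WT, and SD2 against SD1 has none.

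The splitting of the hexose is carried out by aldolase (fba1, SPBC19C2.07, 1771807_at), and triosephosphate isomerase (tpi1, SPCC24B10.21, 1774935_at) interconverts the products. The aldolase gene read 14.33, 14.17 and 14.16 in WT, 14.24, 14.08 and 14.07 in SD1, and 14.28, 14.14 and 14.12 in SD2. The isomerase gene read 14.29, 14.07 and 14.05 in WT, 14.18, 13.98 and 13.95 in SD1, and 14.23, 14.00 and 14.00 in SD2. For both genes the strains overlapped, and array 1 stood above arrays 2 and 3 in each strain. The log2 differences of fba1 were -0.09 ± 0.084 in SD1 (adjusted p = 0.431) and -0.04 ± 0.084 in SD2 (0.760), and those of tpi1 were -0.10 ± 0.10 (0.480) and -0.06 ± 0.10 (0.693). The 95% intervals reached down to -0.28 and -0.34 in SD1, so falls as large as those of the hexokinase genes lay outside them.

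The oxidation of glyceraldehyde 3-phosphate has no member with a probe set of its own, but the array carries control probe sets that the file labels Sp-GPD3, outside the test. The control for the 5' end averaged 13.42 ± 0.27 for WT, 12.95 ± 0.24 for SD1 and 13.35 ± 0.26 for SD2 (log2 level with SD over 3 arrays), and that for the middle read 13.88 ± 0.17, 13.58 ± 0.21 and 13.78 ± 0.14. A middle control marked as shared between transcripts read 14.44 ± 0.066, 14.20 ± 0.077 and 14.30 ± 0.086, and the shared 3' control 14.27 ± 0.083, 14.11 ± 0.082 and 14.14 ± 0.085. All 4 means were lowest in SD1 and highest in WT, with differences of -0.47 to -0.16 in SD1 and -0.15 to -0.06 in SD2.

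Phosphoglycerate kinase forms ATP from 1,3-bisphosphoglycerate. Its gene pgk1 (SPBC14F5.04C, 1770188_at) read 14.07, 14.04 and 13.92 in WT, 13.91, 13.70 and 13.75 in SD1, and 13.99, 13.81 and 13.82 in SD2. SD1 lay just below WT without overlap, while the highest SD2 array fell inside the WT range. The log2 difference was -0.22 ± 0.087 in SD1 (adjusted p = 0.0687) and -0.13 ± 0.087 in SD2 (adjusted p = 0.274). In SD1 it passed with the array number as a block (0.0102), with quantile normalization (-0.26, 0.00463) and without SD1 array 1 (-0.28, 0.0437), and adjusted p-values ran from 0.00463 to 0.275 over the alternatives.

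Phosphoglycerate mutase (gpm1, SPAC26F1.06, 1771496_at) moves the phosphate ahead of enolase, and pyruvate kinase (pyk1, SPAC4H3.10C, 1775297_at) closes the pathway with the last ATP. The mutase gene read 14.24, 14.04 and 14.02 in WT, 14.12, 13.93 and 13.89 in SD1, and 14.21, 13.98 and 14.00 in SD2. The kinase gene read 13.85, 13.79 and 13.74 in WT, 13.80, 13.67 and 13.69 in SD1, and 13.85, 13.74 and 13.75 in SD2. Strains overlapped for both genes, and pyk1 had the identical value on array 1 of WT and of SD2. The log2 differences of gpm1 were -0.12 ± 0.10 in SD1 (adjusted p = 0.371) and -0.04 ± 0.10 in SD2 (0.791), and those of pyk1 were -0.08 ± 0.070 (0.426) and -0.01 ± 0.070 (0.896). The interval for pyk1 ran from -0.24 to 0.08 in SD1 and from -0.17 to 0.15 in SD2, the narrowest range around 0 among the genes below phosphofructokinase.

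Over the 9 genes the median log2 difference from WT was -0.12 in SD1 and -0.06 in SD2, beside -0.03 and 0.01 over all S. pombe probe sets. The members spread from -0.68 to 0.12 in SD1 and from -0.50 to 0.13 in SD2. Those limits lay inside the 5th to 95th percentiles of all probe sets, which ran from -0.84 to 1.05 in SD1 and from -0.66 to 0.88 in SD2. Each gene was also set beside the highest value among the named S. pombe probe sets of an array. At their closest, fba1, tpi1, gpm1 and pgk1 came within 0.29 to 0.46 of it and hxk2 within 0.51. For pgi1 the distance was 0.60, for pyk1 0.71, for pfk1 1.32 and for hxk1 2.02. The genes nearest that value, fba1, tpi1, gpm1 and pgk1, were not called, and the farthest, hxk1, was called. Between them lay hxk2 and pgi1, which were called, and pyk1 and pfk1, which were not. The part of bright signals in the size of the differences was not tested.

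For the glycolytic genes array 1 was the highest of its strain in 26 of 27 gene and strain combinations, by a median of 0.17 over the mean of arrays 2 and 3. These combinations share the same 9 arrays, and the share over all S. pombe probe sets was not counted. Over all those probe sets, deviations of arrays numbered 1 from strain means correlated at 0.79 to 0.87 between strains. Differences between same-numbered arrays remove the step of array 1. In SD1 all 9 genes kept 1 sign within numbers 1, 2 and 3. The falls of hxk1 were -0.59, -0.79 and -0.58, those of hxk2 were -0.61, -0.80 and -0.58, and those of pgi1 were -0.67, -0.74 and -0.64. For the lower pathway the within-number values were small but steady, at -0.09, -0.09 and -0.08 for fba1, -0.11, -0.10 and -0.10 for tpi1, and -0.12, -0.12 and -0.13 for gpm1. With the array number as a block, which fits those steps, 6 genes were called lower in SD1 and 1 higher, beside 33% and 26.8% of all probe sets. The added calls were pgk1, gpm1 and tpi1, lower, and pfk1, higher. These log2 differences remain those given above, from -0.22 to 0.12.

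In SD2 the falls were larger among arrays numbered 2, at -0.72 for hxk1, -0.63 for hxk2 and -0.62 for pgi1, than among arrays numbered 1 or 3, at -0.45 to -0.32. With the block 3 genes were called lower in SD2 and 1 higher (pfk1), beside 23.6% and 26% of all probe sets. The lower pathway genes fba1, tpi1, gpm1 and pyk1 ranged from -0.08 to 0.00 within the numbers in SD2.

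**Figure D3:**
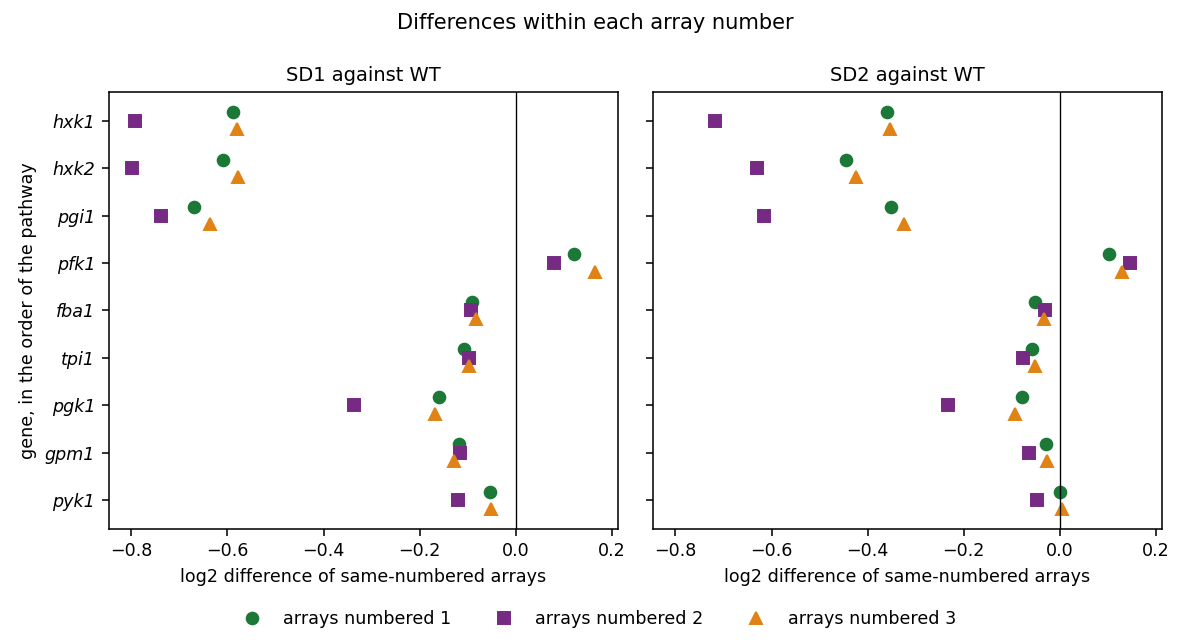
Log2 difference from WT between arrays of the same number (x axis; 1 point per number) for the 9 genes in pathway order (y axis), in SD1 and SD2. Points of hxk1, hxk2 and pgi1 lie between -0.80 and -0.32, and pfk1 lies above 0 in every number. In both deletions number 2 is the most negative for hxk1, hxk2, pgi1, pgk1 and pyk1.

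Within strains the members varied together. After removal of strain means, Pearson's r over the 9 arrays ranged from 0.36 for pgi1 with pfk1 to 1.00 for tpi1 with gpm1. With strain differences kept in, hxk1, hxk2 and pgi1 correlated with each other at 0.95 to 0.99, fba1, tpi1 and gpm1 at 0.99, and pfk1 correlated with hxk1, hxk2 and pgi1 at -0.68 to -0.52. The gene pgk1 lay nearer the first group, at 0.94 with hxk1, 0.96 with hxk2 and 0.90 with pgi1. With fba1, tpi1 and gpm1 it correlated at 0.85, 0.82 and 0.85. These coefficients are descriptions over arrays that share 3 strains and 3 numbers.

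The genes whose values over the 9 arrays were most like those of the isomerase gene pgi1 were end4 (Pearson's r = 0.999), a gene of endocytosis and the actin cortex, gpi8 (0.997), a GPI anchor transamidase gene, and gpx1 (0.997), a glutathione peroxidase gene. Their log2 differences were -0.55, -0.66 and -0.86 in SD1 and -0.33, -0.42 and -0.53 in SD2. For hxk2 they were arp3 (0.993), a gene of the actin-nucleating Arp2/3 complex, ptf1 (0.99) and rsm23 (0.989), a mitochondrial ribosomal protein gene. For hxk1 they were ubc11 (0.994), a ubiquitin-conjugating enzyme gene, dak1 (0.99), a dihydroxyacetone kinase gene, and arp3 (0.99). Of these, dak1 alone belongs to the carbon metabolism lists described here.

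SD2 was compared with SD1 directly to ask whether the L32 genes differ in their effect on the pathway. No glycolytic gene was called, with 0 of 9 higher and 0 of 9 lower beside 0.034% and 0.136% of all probe sets, and 1 of 9 had an unadjusted p under 0.05, beside 11.4% of all probe sets. All 9 values were at or above 0, with a median of 0.08 beside 0.04 over all probe sets. The farthest was pgi1, higher in SD2 by 0.25 ± 0.097 (log2, SE, adjusted p = 0.390, 95% interval 0.03 to 0.47), and it was the single member whose 3 SD2 arrays all lay above the 3 of SD1, as 12.2% of all probe sets did. The intervals for hxk1 (-0.11 to 0.46) and hxk2 (-0.17 to 0.49) include 0 and differences close to the size of their changes from WT. For pfk1 the interval was -0.14 to 0.15. The comparisons of SD1 and SD2 with WT share the same 3 WT arrays.

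Enolase is the step between mutase and pyruvate kinase and has 2 measured genes outside the member list. The gene eno101 had log2 differences of -0.17 ± 0.085 in SD1 (adjusted p = 0.152) and -0.12 ± 0.085 in SD2 (adjusted p = 0.337), and with the block it passed in both (0.00889 and 0.0375). The paralog eno102 read 9.53, 11.40 and 10.92 in WT, 9.38, 11.30 and 10.70 in SD1, and 9.69, 10.01 and 11.09 in SD2. It varied far more between array numbers than between strains, and neither difference passed (adjusted p = 0.864 and 0.710).

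Around glycolysis, 48 genes were listed in 8 groups and 31 had a probe set of their own. In SD1, 3 of the 31 rose and 15 fell, with a median log2 difference of -0.42, and in SD2, 3 rose and 13 fell, with a median of -0.30. The shares called over all probe sets are those given for the glycolytic genes.

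Of enzymes that oppose or bypass glycolysis, the malic enzyme gene mae2 fell by 0.42 ± 0.074 in SD1 (log2, SE, adjusted p = 0.00215) and by 0.27 ± 0.074 in SD2 (0.0238). The SD2 call on mae2 was lost in 5 of 15 alternatives. The fructose-1,6-bisphosphatase gene fbp1, whose product reverses the phosphofructokinase step and whose RNA is repressed by glucose, read 9.04, 12.14 and 10.75 in WT, 8.41, 9.49 and 10.13 in SD1, and 8.17, 9.50 and 9.88 in SD2. Within each number both deletions lay below WT, but the arrays overlapped, and fbp1 was at -1.30 ± 0.79 in SD1 (adjusted p = 0.218) and -1.46 ± 0.79 in SD2 (0.194). With the block it passed in both (0.0421 and 0.0342). The pyruvate carboxylase gene pyr1 was at -0.03 and 0.03.

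Downstream of pyruvate, adh4 rose 2.61-fold in SD1 (log2 1.38 ± 0.14, adjusted p = 0.000164) and 2.13-fold in SD2 (1.09 ± 0.14, adjusted p = 0.000872). It encodes an alcohol dehydrogenase. Its arrays read 9.45, 9.52 and 9.80 in WT, 10.88, 10.86 and 11.17 in SD1, and 10.47, 10.78 and 10.78 in SD2, so WT stood apart. The other measured alcohol dehydrogenase gene, adh1, was at -0.07 ± 0.090 and -0.03 ± 0.090. Of 5 genes for pyruvate dehydrogenase subunits, dld1 fell by 0.43 in SD1 (adjusted p = 0.00409) and by 0.30 in SD2 (0.0286, lost in 7 of 15 alternatives), and the other 4 lay between -0.05 and 0.15.

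Of routes that leave glycolysis at its upper part, all 3 trehalose genes fell in both deletions. The trehalose-6-phosphate synthase gene tps1 read 12.84, 13.09 and 12.65 in WT, 11.56, 11.82 and 11.43 in SD1, and 12.09, 11.59 and 11.94 in SD2, a fall of 2.39-fold in SD1 and 1.98-fold in SD2. The trehalase gene ntp1 fell 2.29-fold and 1.87-fold and the trehalose phosphatase gene tpp1 2.00-fold and 1.65-fold (adjusted p from 0.000149 to 0.00279 over the 6 tests). In the pentose phosphate pathway the transaldolase gene tal1 fell by 0.46 ± 0.13 in SD1 (log2, adjusted p = 0.0240, lost in 5 of 15 alternatives) and was at -0.40 ± 0.13 in SD2 (adjusted p = 0.0503). The glucose-6-phosphate dehydrogenase gene zwf1 was at -0.11 and -0.10.

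At the triose branch, 4 of 6 genes of glycerol and dihydroxyacetone metabolism fell in SD1 and 3 of 6 in SD2, and 1 rose in each. The glycerol dehydrogenase gene gld1 fell 6.15-fold in SD1 and 9.87-fold in SD2, the mitochondrial glycerol-3-phosphate dehydrogenase gene gut2 2.34-fold and 3.38-fold, and dak1 1.86-fold and 1.48-fold. The other dihydroxyacetone kinase gene, dak2, was at -0.42 in SD1 (adjusted p = 0.606) and -0.33 in SD2 (adjusted p = 0.710). The SD2 call on dak1 was lost in 5 of 15 alternatives and the SD1 call on gut2 in 2. Of the cytosolic glycerol-3-phosphate dehydrogenases, gpd2 rose by 0.42 in SD1 and by 0.28 in SD2 (log2), while gpd1 fell by 0.37 in SD1 (adjusted p = 0.0169, lost in 2 alternatives) and was at -0.26 in SD2 (adjusted p = 0.0816).

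At the entrance, 5 of 8 hexose transporter genes fell and 1 rose in each deletion. The transporter gene ght1 read 12.88, 12.31 and 10.80 in WT, 8.55, 7.59 and 6.53 in SD1, and 8.54, 6.15 and 6.60 in SD2, a fall of 21.7-fold in SD1 (adjusted p = 0.00200) and 29.8-fold in SD2 (adjusted p = 0.00211). The WT arrays spread widely, yet none came near a deletion array. Its paralog ght4 fell 8.10-fold and 7.82-fold, and ght3 fell 6.47-fold and 10.7-fold. The values of ght5, a main glucose transporter gene, were 14.16, 14.29 and 13.90 in WT, 13.41, 13.33 and 13.17 in SD1, and 13.69, 13.19 and 13.43 in SD2. It fell by 0.81 ± 0.15 in SD1 (log2, SE, adjusted p = 0.00246) and by 0.68 ± 0.15 in SD2 (0.00873). The log2 differences of hxk1 and hxk2 were smaller in size, at -0.65 and -0.66 in SD1 and -0.48 and -0.50 in SD2. The riser was ght8, by 1.06 in SD1 and 0.94 in SD2. The call on ght7 was lost in 5 of 15 alternatives in SD1 and 10 in SD2. In SD2 against SD1 0 of the 31 genes passed.

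**Figure D4:**
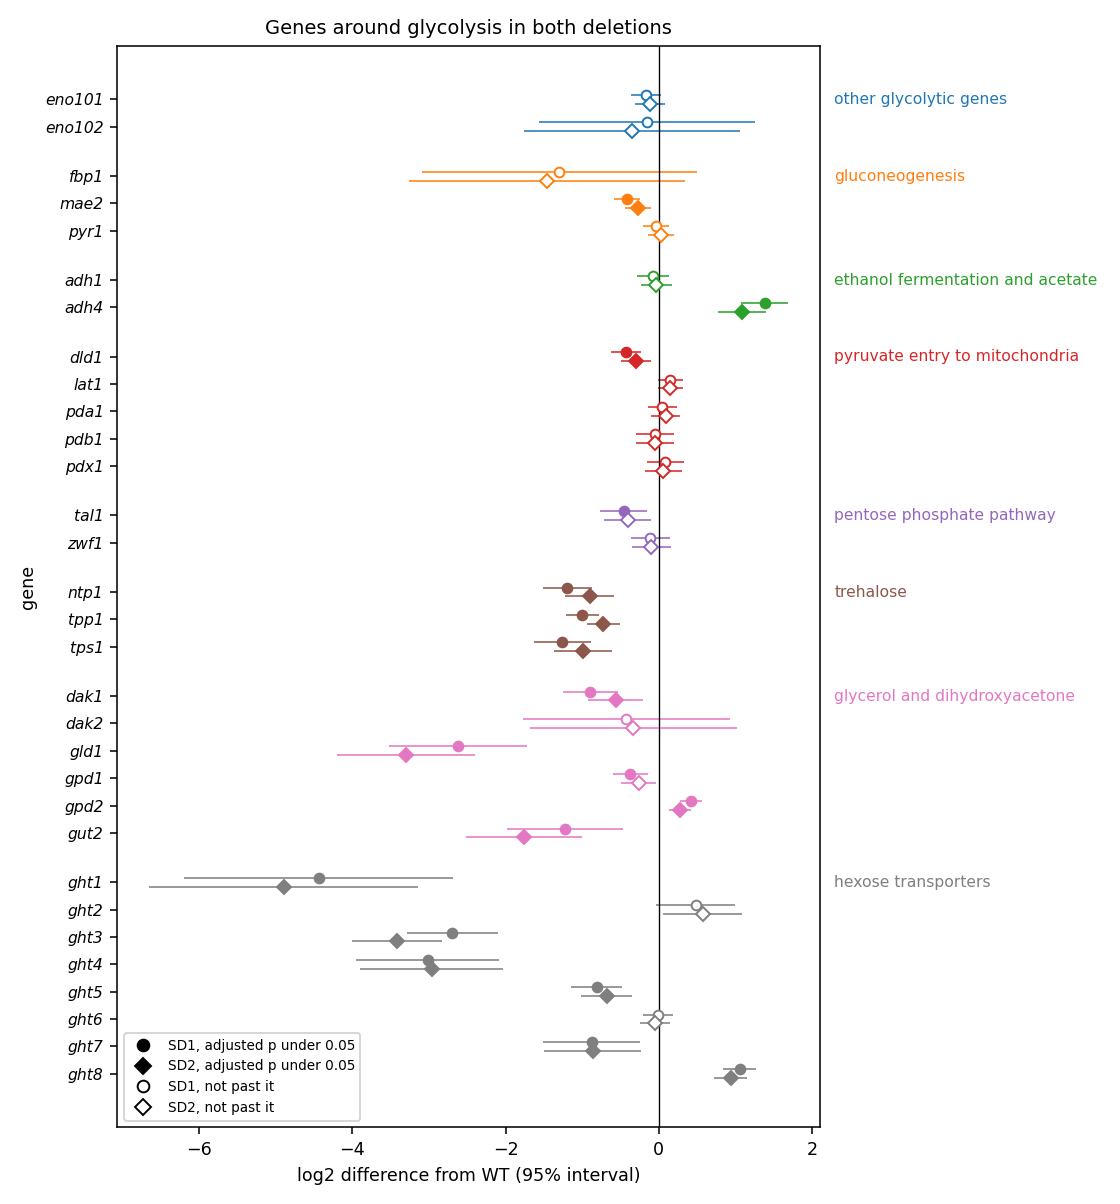
Log2 difference from WT with its unadjusted 95% interval (x axis) for the 31 genes around glycolysis (y axis, grouped by list), with circles for SD1, diamonds for SD2 and filled symbols where the adjusted p was under 0.05. The 3 trehalose genes lie between -1.26 and -0.73, adh4 and ght8 lie near 1, and pyr1, adh1, pda1 and pdb1 lie near 0.

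The array also holds S. cerevisiae probe sets, and 9 of them carry the symbols of listed genes, which gives a measure of cross-hybridisation. TPI1 (6.65 to 7.20) and PGK1 (7.06 to 7.49) lay above the S. cerevisiae background of 5.17 on all 9 arrays, PFK1 on 6 of 9, and HXK1, HXK2, PGI1, FBA1, TDH1 and GPM1 on none. The S. cerevisiae PGK1 and TPI1 probe sets showed no call between strains (limma adjusted p of 0.921 or more over the 6 tests), with log2 differences of -0.14 to 0.23.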

How the data were processed

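The values deposited by the authors are log2 signals of probe sets; RMA and Partek are named in the submitters' processing notes, with no version, settings or build given in the sources used here. The table held 10928 probe sets. The platform table named 5538, of which 2937 were S. pombe (2917 with 1 symbol) and 2601 S. cerevisiae; symbols were updated by gene number to assembly ASM294v3. Arrays give no read depth, so their number limits the precision.

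The values were used as deposited. limma 3.58.1 in R 4.3.3 fitted 1 mean per strain over all 9 arrays (lmFit, contrasts, eBayes), with p-values adjusted after Benjamini and Hochberg across all 2937 S. pombe rows and calls at adjusted p under 0.05. The fit was tested on simulated data with 200 probe sets changed in SD1: of 100 changed by 1 log2 unit 93 were called. The simulated noise was independent between arrays, and fewer probe sets were changed than were called in SD1. That count therefore does not give the power of the fit on these arrays. Smaller changes, of the size seen for the uncalled glycolytic genes, were not simulated. Background, 5.17, is the level that 95% of S. cerevisiae probe sets stay under, averaged over arrays.

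Deviations of same-numbered arrays from strain means correlated at 0.85, 0.28 and 0.59 (SD1 with WT), 0.79, -0.10 and 0.33 (SD2 with WT) and 0.87, 0.13 and 0.62 (SD2 with SD1). Some arrays of different numbers correlated more closely, up to 0.75 (WT array 3 with SD2 array 2). Arrays numbered 1 shared 238 to 412 exactly equal values between strains. Arrays numbered 2 shared 2 to 9, those numbered 3 shared 10 to 12, and arrays of different numbers shared 0 or 1. The labels give the number as that of a biological replicate and name no batch. It was used as a block that holds every strain. WT array 2 correlated at 0.46 with SD1 array 3 but at 0.28 with SD1 array 2. Likewise SD1 array 2 correlated at 0.60 with SD2 array 3 but at 0.13 with SD2 array 2. The numbers therefore do not pair all the arrays of any 2 strains, and the block is a term for the number only.

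Alternatives were the replicate block, a fit of 2 strains, median centring, quantile normalization, a filter on dim probe sets, an intensity trend and leaving out each array. Named genes were all members, and up to 4 called genes per list or the 2 largest where none was called. For the 2 members that fell most per deletion, the 3 genes of highest Pearson correlation were named as well. The genes fbp1, pyr1, adh1, dak2, ght5, ght7, gpd1, pda1 and pdb1 were named after their values were seen. Members and lists were chosen with earlier results of these data known. Whether replicates were separate cultures is not detailed in the labels. The files name no build, so no coordinates are given.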

Additional observations from a re-analysis of the deposited data

How the results depend on the processing

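The falls of hxk1, hxk2 and pgi1 kept their direction under all 15 alternative fits in SD1 and SD2. Their SD1 calls and both pgi1 calls held in each. The block, the fit of 2 strains, the filter on dim probe sets and the intensity trend leave a log2 difference unchanged. So does leaving out an array of the strain not compared. Direction could turn only with centring, quantile normalization or leaving out an array of a compared strain. With the replicate block 6 glycolytic genes were lower and 1 higher in SD1, and 3 lower and 1 higher in SD2; the block lost no call on a glycolytic gene, and in the other lists it gave 5 higher and 16 lower in SD1 (26.8% and 33% of all probe sets) and 5 higher and 15 lower in SD2 (26% and 23.6%), and lost ght7 in both. Leaving out arrays, the glycolytic genes lower in SD2 numbered 1 to 3, with 1 without WT array 2, SD2 array 2 or SD2 array 3, where over all probe sets 261, 261 and 270 were lower in place of 419 (694 with the block). Against SD1, SD2 had 16 higher and 9 lower with the block and 3 and 7 without WT array 2, in place of 1 and 4.

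The members' median ran from -0.19 to -0.053 in SD1, from -0.14 to 0.012 in SD2 and from 0.026 to 0.15 in SD2 against SD1 as arrays were left out. Median centring gave -0.075 in SD1 and 0.044 in SD2 against SD1, and quantile normalization gave -0.14 and 0.086. Within numbers it moved to -0.13 (SD1, number 3), -0.078 (SD2, number 2) and 0.072 (SD2 against SD1, number 2). Signs turned only for uncalled genes near 0. In SD2 against WT, as arrays were left out, fba1 ran from -0.087 to 0.017, tpi1 from -0.14 to 0.012, gpm1 from -0.11 to 0.028 and pyk1 from -0.050 to 0.014. In SD2 against SD1, tpi1 ran from -0.039 to 0.11 and pfk1 from -0.030 to 0.028, with pfk1 at -0.032 after centring and -0.0017 after quantile normalization. The cause was not tested. The 3 arrays per strain limit the precision.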
